A study of Mus musculus with 4 samples.

Results

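Chemokines are small secreted proteins that guide the migration of leukocytes and neural cells, and their receptors are G protein-coupled receptors of the cell surface. In the brain, neurons and stromal cells make a few of them steadily, such as Cx3cl1 and Cxcl12, whereas microglia, macrophages, astrocytes and endothelium make others only once stimulated. The genes described here are the CC, CXC, CX3C and XC ligands and receptors on the array whose symbols begin with Ccl, Cxcl, Ccr or Cxcr and a digit, or are Cx3cl1, Xcl1 or Xcr1. They number 54 genes with 74 probes, of 37325 genes with 56605 probes in all, and hold 36 ligands and 18 receptors.

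Their expression was read in the hippocampus of wild-type (WT) mice and of mice carrying 1 knockout allele of Rp58 (hetero-KO), a gene now named Zbtb18 that encodes a zinc finger transcriptional repressor. Mice were 4 months old, or 18 months by the age label (a title of 1.5 years and a description of 12 to 18 months). Each of the 4 groups was 1 single-colour Agilent array carrying RNA mixed from 3 samples, so no group had a replicate array. The pools are called young (4 months) and old (18 months) here. The labels give neither the strain nor the removed part of Rp58, and name no Cre or other allele. A level is the processed signal divided by the 75th percentile of its array; levels compare arrays for 1 probe, not 1 gene with another.

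The 4 arrays shared 1 slide and 1 scan time, had no saturated spot, and held between 77.9% and 81.9% of spots well above background. All 12 markers of hippocampal principal cells were measured on every array. Zbtb18 itself read 17.5 (WT) and 15.2 (hetero-KO) in the young pools, then 18.9 (WT) and 21.4 (hetero-KO) in the old pools, and whether its probe lies in the removed part is not given. The pools differed in more than age and genotype. Xist was well above background on the young arrays alone, at 0.164 (WT) and 0.231 (hetero-KO). Y-linked Eif2s3y stood at 0.673 in young WT, was not well above background in young hetero-KO, and stood at 1.30 (WT) and 1.33 (hetero-KO) in the old pools. Y-linked Ddx3y and Uty had the same order, but Y-linked Kdm5d did not. Kdm5d was measured on every array, at 0.0880 (WT) and 0.0845 (hetero-KO) in the young pools, then 0.117 (WT) and 0.120 (hetero-KO) in the old pools. Of 10 thalamus and habenula markers 9 fell with age, where 0.643% of all genes did. At 4 months, 10 of 10 striatum markers were higher in hetero-KO than in WT, by a median of 1.52 on the log2 scale, where 44.3% of all genes were higher. These differences move with the comparisons described here, and their part in the results was not tested.

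A large share of the family was at or under the detection limit of the array. Of the 74 probes, those well above background numbered 53 (WT) and 49 (hetero-KO) on the young arrays, then 48 (WT) and 48 (hetero-KO) on the old ones. Counted by gene, these were 39, 35, 34 and 35 of 54. Ligands were measured on all 4 arrays for 24 of 36 genes and receptors for 8 of 18. Of all 37325 genes, 27380 were so measured, 27365 of them with a usable value on every array. The genes not well above background on any array were 12, namely Ccl20, Ccl22, Cxcl3, Cxcl9, Cxcl15, Cxcl17, Xcl1, Ccr1, Ccr1l1, Cxcr2, Cxcr5 and Xcr1. These include the receptor of the neutrophil-attracting ligands (Cxcr2), that of Cxcl13 (Cxcr5) and a receptor of Ccl3 and Ccl6 (Ccr1). Another 6 genes passed on 1 array alone, which were Cxcl2, Cxcr1, Ccr2 and Ccr4 in WT at 4 months, Ccl11 in hetero-KO at 4 months and Ccl26 in hetero-KO at 18 months. The map of the genes measured on all 4 arrays shows the older hetero-KO pool as the highest for many ligands.

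**Figure D1:**
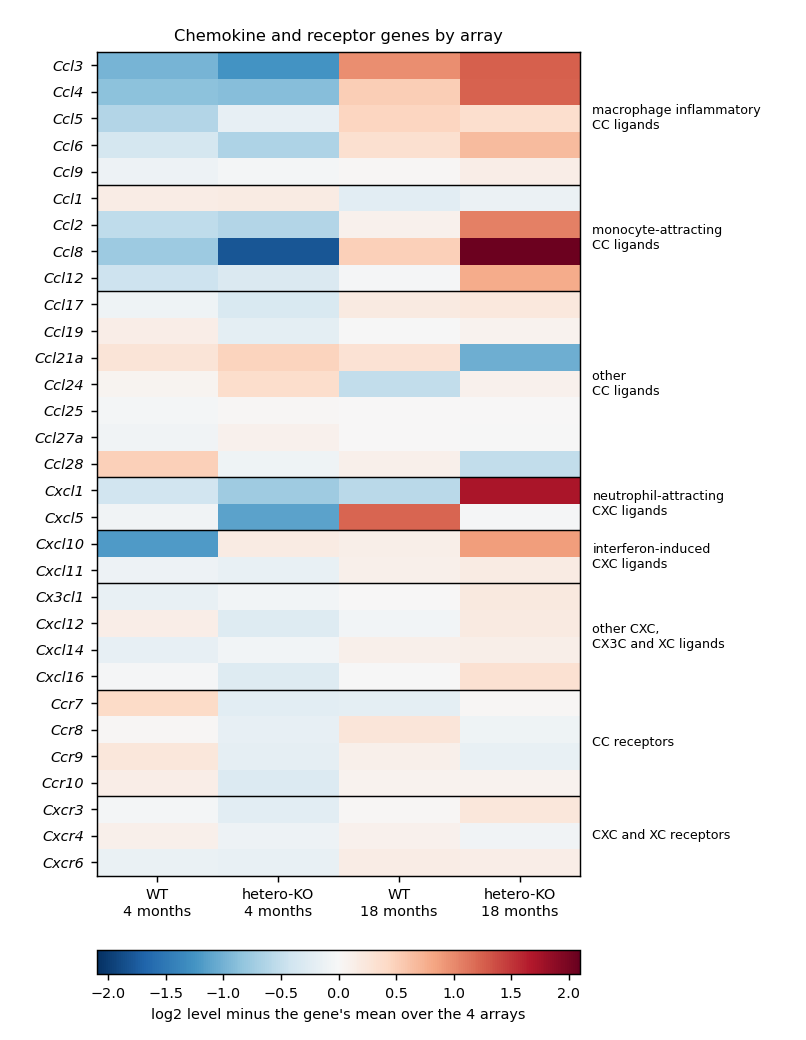
Log2 level of 31 of the 32 genes measured on all 4 arrays, minus that gene's mean over the arrays, by array (columns) and by role (rows); red is above and blue below the gene's own mean, and a colour says nothing about one gene against another. Ccl3, Ccl4 and Ccl8 go from blue at 4 months to red at 18 months in both genotypes, and Ccl21a is blue in hetero-KO at 18 months.

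With age, the clearest differences were in ligands. Over both genotypes, 4 of the 36 genes tested rose from 4 to 18 months and none fell: the macrophage inflammatory proteins Ccl3 and Ccl4, the neutrophil-attracting ligand Cxcl5 and the B cell-attracting ligand Cxcl13, which was tested only because the 18-month arrays let it pass the filter. Among the 32 genes measured on all 4 arrays, fitted with the 27365 genes so measured, 3 rose, Ccl3, Ccl4 and Cxcl5. Among all 29071 genes tested, 1.46% rose and 0.643% fell. The test was limma's moderated test of age with genotype as a covariate and Benjamini-Hochberg adjustment, which leaves 1 residual degree of freedom over the 4 pooled arrays. That residual is how far the age difference of a gene departs between the genotypes, moderated by a variance trend over all genes. With no replicate array, a p-value says nothing of spread between arrays of the same group or between mice. In a bulk sample, fewer cells of a type and less RNA per cell cannot be told apart. At an unadjusted p under 0.05, 15 genes were higher at 18 months and 2 lower, 17 of 36, where 16.8% of all genes were higher and 6.92% lower, 23.7% together. The median log2 age difference of the 36 genes was 0.24, against 0.04 for all genes tested, and 27 of the 36 were positive, against 58.2% of all genes. Of the 32 genes measured on every array, 17 had both 18-month arrays above both 4-month arrays, where 32.4% of all genes did.

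Ccl3 (macrophage inflammatory protein 1 alpha) attracts monocytes and T cells, in part through Ccr1, and its probe lies on chromosome 11 at 83461358 to 83461417 in build mm9. Ccl3 read 0.0285 (WT) and 0.0234 (hetero-KO) in the young pools, then 0.109 (WT) and 0.133 (hetero-KO) in the old pools. Both older pools were thus well above both younger ones, and the groups of age did not overlap. The rise was 2.22 ± 0.18 on the log2 scale (SE), or 4.65-fold, with an adjusted p of 0.0323 by limma.

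Ccl4 (macrophage inflammatory protein 1 beta), a related ligand encoded next to Ccl3, followed the same order by age. The spans of Ccl3 and Ccl4 overlap in the RefSeq gene table of GRCm38, with their probes on opposite strands. It read 0.0361 (WT) and 0.0354 (hetero-KO) in the young pools, then 0.0947 (WT) and 0.156 (hetero-KO) in the old pools. The age groups did not overlap, and the older hetero-KO pool was the highest. The rise was 1.77 ± 0.21 (SE), or 3.40-fold, with an adjusted p of 0.0458. A second Ccl4 probe gave 0.0253 (WT) and 0.0216 (hetero-KO) in the young pools, then 0.0595 (WT) and 0.0989 (hetero-KO) in the old pools, the same order by age. Those probes are not independent measurements, since 46 of their 60 bases are shared. Their first 30 bases are shown here to make that overlap visible, with the shared 16 in capitals, from chromosome 11, plus strand, mm9.
Ccl4 probe at 83478038: gggagtattattttTATTATTTATGTTTTA
Ccl4 probe at 83478052: TATTATTTATGTTTTAgttataggacgcgt

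Cxcl5, which draws neutrophils through Cxcr2, read 0.263 (WT) and 0.128 (hetero-KO) in the young pools, then 0.651 (WT) and 0.274 (hetero-KO) in the old pools. The age groups did not overlap, although the older hetero-KO pool was only just above the younger WT pool. The rise with age was 1.20 ± 0.09 (SE), or 2.30-fold, with an adjusted p of 0.0289. Within each age the hetero-KO pool was the lower, as described further on.

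Cxcl13, which organises B cell follicles through Cxcr5, was not well above background in either 4-month pool, where it read 0.00257 (WT) and 0.00167 (hetero-KO). In the old pools it reached 0.0270 (WT) and 0.0172 (hetero-KO). The levels of the younger pools are therefore only upper limits. Cxcl13 was at least 3.46-fold higher at 18 months, with an adjusted p of 0.0408 from the fit of the measured values. This gene passed the filter on dim probes only through the 18-month arrays, so it had to differ to be tested at all.

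The age calls depended on the processing. With no filter on dim genes the adjusted p of Ccl3, Ccl4 and Cxcl5 was 0.15 each and that of Cxcl13 0.14, and without the variance trend it was 0.32 for the first 3 and 0.18 for Cxcl13. In the authors' deposited table, whose 18-month columns match none of the 18-month arrays, the age difference was −0.01 for Ccl3, −0.23 for Ccl4 and −2.06 for Cxcl5.

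**Figure D2:**
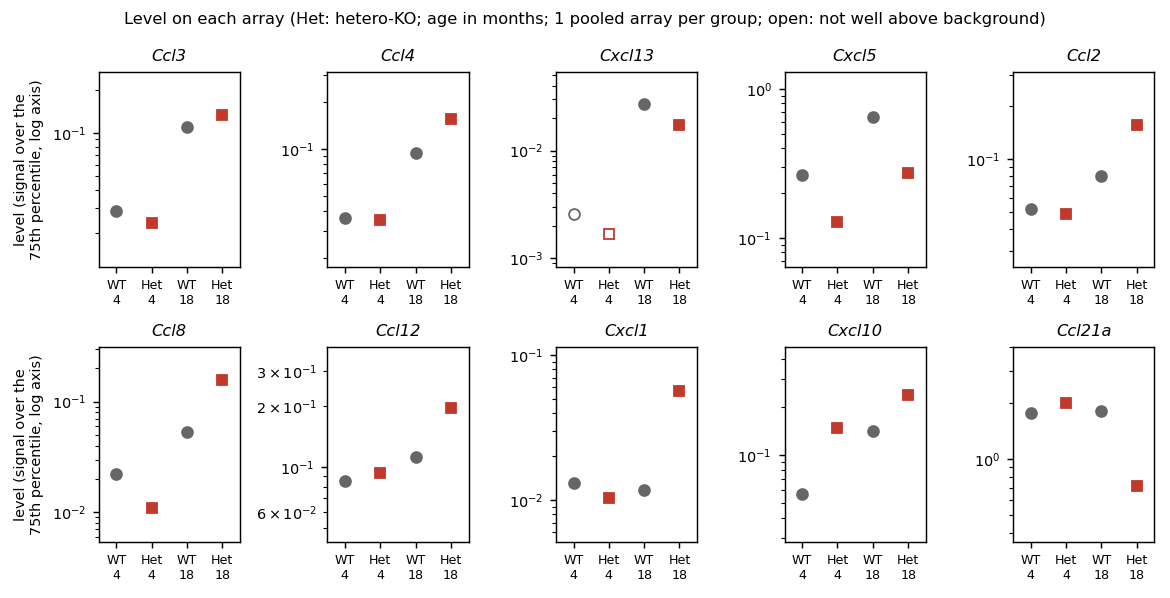
Level on each of the 4 arrays (signal over the array's 75th percentile, log axis, a separate range per gene) for 10 ligands; grey circles are WT and red squares hetero-KO, 1 pooled array each with no error bar, and open symbols are spots not well above background. Ccl3 and Ccl4 separate by age, Cxcl5 separates by age and, within each age, by genotype, and Cxcl1 stands out in hetero-KO at 18 months alone.

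Other CC ligands of macrophages were higher at 18 months without passing the adjusted threshold. Ccl5 (RANTES), a ligand of Ccr1 and Ccr3 among others, read 0.0971 (WT) and 0.132 (hetero-KO) in the young pools, then 0.203 (WT) and 0.189 (hetero-KO) in the old pools (log2 difference with age 0.79, adjusted p = 0.0722 by limma). Ccl6, a Ccr1 ligand of mouse macrophages and microglia, read 0.186 (WT) and 0.153 (hetero-KO) in the young pools, then 0.302 (WT) and 0.379 (hetero-KO) in the old pools (log2 difference 1.01, adjusted p = 0.0578 by limma). For both genes the older pools lay above the younger ones. Ccl9, another mouse Ccr1 ligand, ranged only from 0.177 to 0.210 over the 4 arrays.

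Of their receptors, Ccr1 was not well above background on any array. Ccr3 passed on the 4-month arrays alone, at 0.00931 (WT) and 0.00707 (hetero-KO). Of the 10 receptors tested, none passed the age test or the genotype test, where 2.11% and 0.0103% of all genes did. At those shares, having no call among 10 genes does not set the receptors apart from all genes. The receptors measured on all 4 arrays differed by 0.63 at most on the log2 scale within either age, the size reached by Ccr7 at 4 months.

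Beside these ligands, markers of microglia were also higher at 18 months. Of 14 homeostatic microglia markers 7 rose with age and none fell, where 1.46% of all genes rose and 0.643% fell. Their summed level was 65.4 (WT) and 65.5 (hetero-KO) in the young pools, then 80.9 (WT) and 89.9 (hetero-KO) in the old pools. Siglech, which did not pass the age test, made up the largest part of these sums, at 32.3 (WT) and 30.7 (hetero-KO), then 37.1 (WT) and 39.6 (hetero-KO). Of 12 activated microglia markers 5 rose, against the same 1.46% of all genes, with summed levels of 28.8 (WT) and 27.0 (hetero-KO), then 35.4 (WT) and 35.5 (hetero-KO). Cd63 made up most of these sums, at 15.7 (WT) and 14.8 (hetero-KO), then 19.9 (WT) and 18.8 (hetero-KO). Of the 11 measured on every array, 4 were higher in hetero-KO at 4 months and 9 at 18 months. Over all genes the shares were 44.3% and 47.8%. The age difference of Clec7a, a phagocytic receptor of activated microglia, was 2.58 on the log2 scale (adjusted p = 0.0379 by limma), beside 2.22 for Ccl3 and 1.77 for Ccl4. Clec7a was the furthest apart of the 12 activated markers, whose median age difference was 0.66 and whose smallest was 0.12, for Lpl. No marker of either list was undetected on every array. The part of microglial number or state in the ligand differences was not tested.

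The age difference was examined within each genotype without a test, since each comparison is 1 array against 1. In WT, 6 of 33 genes measured on both arrays were at least 2-fold higher at 18 months and none was at least 2-fold lower, where 0.771% of all genes were higher and 0.824% lower by that much. These were Ccl3, Ccl4, Ccl5, Ccl8, Cxcl5 and Cxcl10. In hetero-KO, 8 of 32 were at least 2-fold higher, where 1.1% of all genes were, and 1 was lower, where again 1.1% of all genes were. The higher ones were Ccl2, Ccl3, Ccl4, Ccl6, Ccl8, Ccl12, Cxcl1 and Cxcl5, and the lower one was Ccl21a. Genes well above background on only 1 array of a pair are outside these counts and went in both directions. In WT, Cxcl13 was at least 4.68-fold higher at 18 months and Cxcl2 at least 3.94-fold lower. In hetero-KO, Ccl7 was at least 4.16-fold and Cxcl13 at least 2.56-fold higher, and Ccr6 at least 4.12-fold lower. The scanner software's spot error of a log2 difference, 0.20 to 0.33 for the named genes measured on every array, covers the spot and not the difference between mice or arrays.

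**Figure D3:**
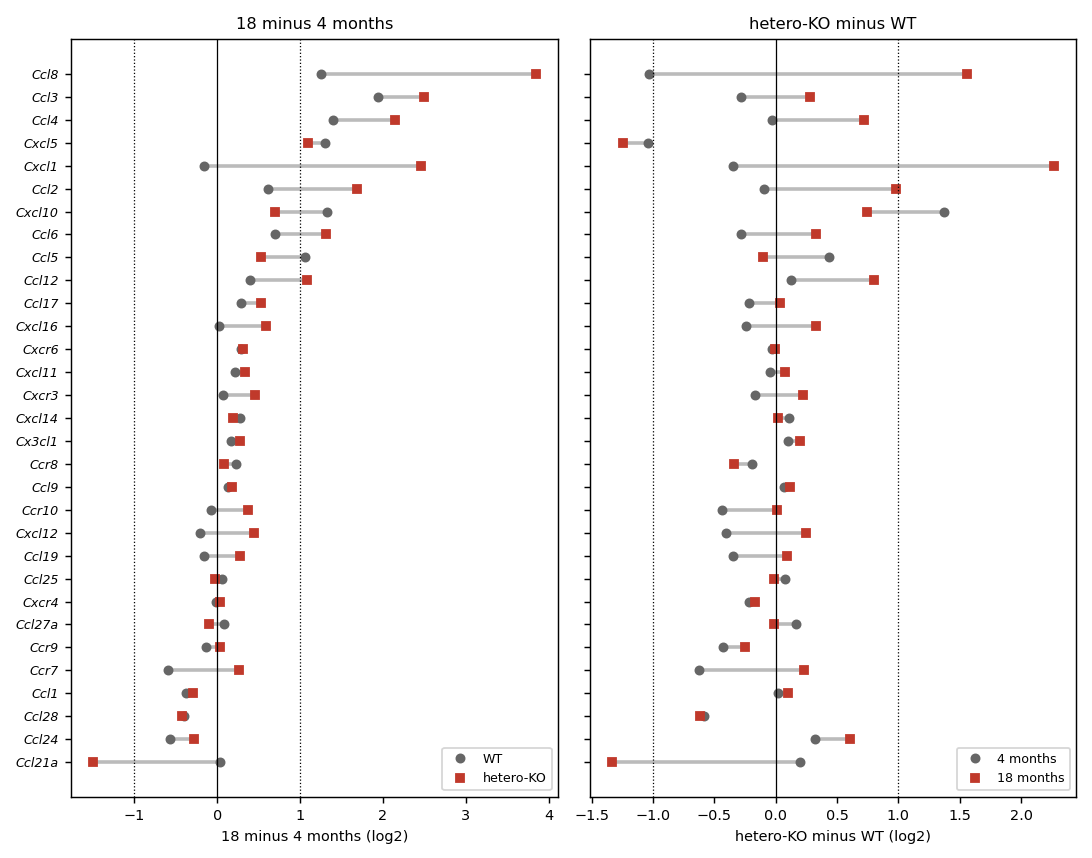
Log2 difference of 31 of the 32 genes measured on all 4 arrays, ordered by the age difference; left, 18 minus 4 months in WT (circles) and hetero-KO (squares); right, hetero-KO minus WT at 4 months (circles) and 18 months (squares). Dotted lines mark 2-fold, each point is 1 array minus 1 array with no error bar, and the long bars of Ccl8, Cxcl1 and Ccl21a are the widest departures between the paired comparisons.

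Among the monocyte-attracting ligands, Ccl2, Ccl7, Ccl8 and Ccl12 were each highest in the old hetero-KO pool. Ccl2, Ccl7 and Ccl12 act through Ccr2 on inflammatory monocytes, and mouse Ccl8 acts through Ccr8. Ccl2 read 0.0519 (WT) and 0.0485 (hetero-KO) in the young pools, then 0.0793 (WT) and 0.156 (hetero-KO) in the old pools. Ccl12 read 0.0856 (WT) and 0.0931 (hetero-KO) in the young pools, then 0.113 (WT) and 0.197 (hetero-KO) in the old pools. In both genes the pools of 4 months were close to each other, and the older hetero-KO pool was above the older WT pool, by 0.98 for Ccl2 and 0.80 for Ccl12 on the log2 scale.

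Ccl8 had the widest spread of the group. It read 0.0222 (WT) and 0.0109 (hetero-KO) in the young pools, then 0.0529 (WT) and 0.156 (hetero-KO) in the old pools. The hetero-KO pool was thus the lowest of the 4 at 4 months and the highest at 18 months. It was 2.04-fold below WT at 4 months and 2.95-fold above WT at 18 months, and the age difference was 2.38-fold in WT and 14.4-fold in hetero-KO. The fit over both genotypes gave an age difference of 2.55 ± 0.62 (SE) with an adjusted p of 0.104 by limma. With normexp background correction the genotype differences of Ccl8 were smaller, −0.20 and 0.96 on the log2 scale, and in the authors' deposited table the 18-month one was −1.82.

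Ccl7 was well above background in WT at 4 months, at 0.0130, and in hetero-KO at 18 months, at 0.0295, but on neither other array. At 18 months it was at least 3.21-fold higher in hetero-KO than in WT. Of their receptors, Ccr8 did not show this order, and Ccr2 was too dim for an order to be read. Ccr2 passed the detection test in WT at 4 months alone, at 0.00635, and Ccr8 read 0.0420 (WT) and 0.0367 (hetero-KO) in the young pools, then 0.0493 (WT) and 0.0389 (hetero-KO) in the old pools. Ccl1, the other Ccr8 ligand, had both older pools below both younger ones, with 0.0276 (WT) and 0.0279 (hetero-KO) in the young pools, then 0.0212 (WT) and 0.0227 (hetero-KO) in the old pools.

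Several marker lists, neuronal and not, also had their highest summed level in the old hetero-KO pool. That of hippocampal principal cells was 71.3 (WT) and 67.1 (hetero-KO) in the young pools, then 80.1 (WT) and 82.8 (hetero-KO) in the old pools. Red blood cell markers summed to 75.2, 64.3, 83.4 and 104 in the same order of groups. Of these 5 markers, 0 were higher in hetero-KO at 4 months and 5 at 18 months. Over all genes, 44.3% and 47.8% were higher. The summed level of 10 border macrophage markers, macrophages of the meninges and vessels, was 1.75 (WT) and 1.47 (hetero-KO) in the young pools, then 1.38 (WT) and 2.04 (hetero-KO) in the old pools, and 9 of 10 were higher in hetero-KO at 18 months against 4 of 10 at 4 months. Reactive astrocyte markers had summed levels of 5.48, 4.56, 7.11 and 10.6 in the same order of groups, most of it from Vim, at 3.59, 2.88, 4.55 and 6.03. Of the 8 reactive astrocyte markers measured on every array, 8 were higher in hetero-KO at 18 months. Of the 8 neutrophil and monocyte markers measured on every array, 0 were higher in hetero-KO at 4 months and 6 at 18 months. S100a9 among them had levels of 0.266, 0.0799, 0.303 and 0.828, while Mmp8 and Elane differed by −0.11 and −0.01 on the log2 scale at 18 months. The summed level of all 11 listed was 10.05, 9.37, 9.87 and 12.6, most of it from Ly6c2, at 9.08, 8.71, 8.86 and 10.8. None of the border macrophage or neutrophil and monocyte markers was undetected on every array, and the part of these cells in the chemokine differences was not tested.

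**Figure D4:**
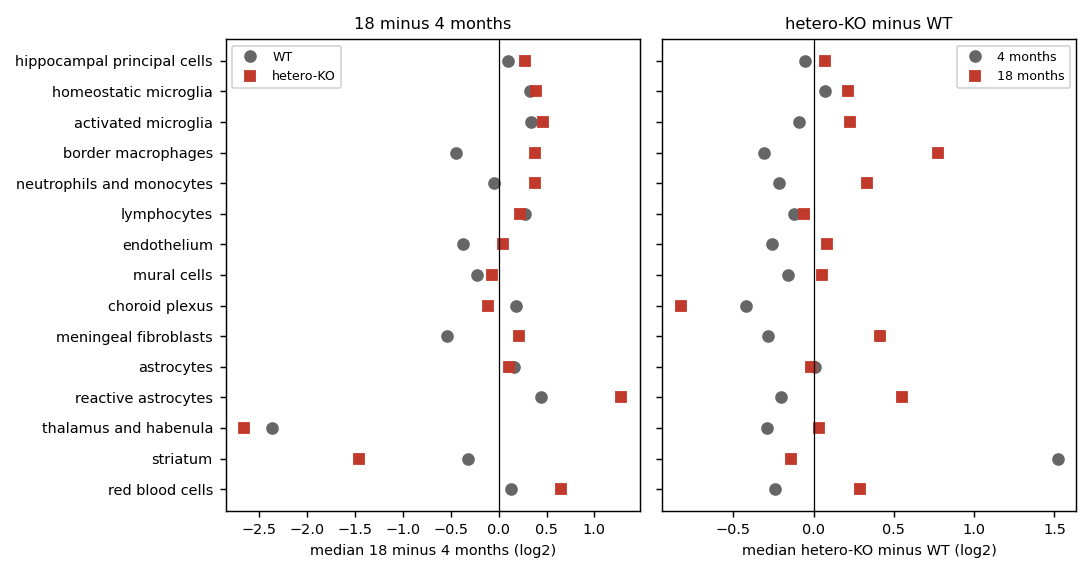
Median log2 difference over the markers of each cell type or tissue that were measured on all 4 arrays; left, 18 minus 4 months in WT (circles) and hetero-KO (squares); right, hetero-KO minus WT at 4 months (circles) and 18 months (squares). Border macrophage markers lie at −0.31 at 4 months and 0.77 at 18 months on the right, and each point compares 1 array with 1 array, with no error bar.

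Genotype over both ages gave no call. Of the 36 genes tested by limma, 0 passed the adjusted threshold, where 0.0103% of all genes did. At an unadjusted p under 0.05, 5 of the 36 passed, where 11.5% of all genes did; Ccl24, Cx3cl1 and Cxcl10 were higher in hetero-KO (5.15% of all genes) and Ccl28 and Cxcl5 lower (6.31%). In each of the other settings tried, the number of genes past the adjusted threshold was also 0. The additive fit counts into its error any genotype effect that is unequal at the 2 ages, as for Ccl8.

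At 4 months, 4 of 34 genes measured on both arrays were at least 2-fold apart between hetero-KO and WT, where 1.32% of all genes were. Cxcl10 and Ccr6 were higher in hetero-KO (0.69% of all genes), and Cxcl5 and Ccl8 lower (0.634%). At 18 months 4 of 33 were, where 1.14% of all genes were, with Ccl8 and Cxcl1 higher (0.525% of all genes) and Ccl21a and Cxcl5 lower (0.612%). Over the genes measured on all 4 arrays, hetero-KO was above WT for 12 of 32 at 4 months and for 22 of 32 at 18 months, while 44.3% and 47.8% of all genes were. Hetero-KO at 18 months was the highest of the 4 arrays for 17 of 32 genes, where 30.3% of all genes were, and hetero-KO at 4 months the lowest for 19 of 32, where 32% of all genes were.

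Cxcl5 was the only one of these genes at least 2-fold apart in the same direction at both ages, 2.06-fold lower in hetero-KO at 4 months and 2.37-fold lower at 18 months. Its genotype difference over both ages was −1.14 ± 0.09 on the log2 scale (SE), with an unadjusted p of 7.17e-05 and an adjusted p of 0.129 by limma. Choroid plexus markers were lower in hetero-KO in the same comparisons, for 12 of 12 genes at each age and by medians of −0.42 and −0.83. Their part in the Cxcl5 difference was not tested.

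Cxcl10, an interferon-induced ligand of Cxcr3 on activated T cells, was higher in hetero-KO at both ages. It read 0.0569 (WT) and 0.147 (hetero-KO) in the young pools, then 0.142 (WT) and 0.239 (hetero-KO) in the old pools. The younger WT pool was the low one, and the younger hetero-KO pool stood level with the older WT pool. The difference from WT was 2.58-fold at 4 months and 0.75 on the log2 scale at 18 months, and over both ages 1.06 ± 0.17 (SE; adjusted p = 0.218 by limma). A second Cxcl10 probe was not well above background on any array. Cxcr3, its receptor, ranged from 0.0268 to 0.0368 with no such order.

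Cxcl1 and Cxcl2 attract neutrophils through Cxcr2 and are made by stimulated endothelium, astrocytes and macrophages. Cxcl1 read 0.0132 (WT) and 0.0103 (hetero-KO) in the young pools, then 0.0118 (WT) and 0.0569 (hetero-KO) in the old pools. A single pool thus stood apart, 4.82-fold above WT of its age; with normexp background correction this difference was 0.74 on the log2 scale, and in the authors' deposited table it was −0.44. Cxcl2 was well above background in WT at 4 months alone, at 0.0300, at least 4.46-fold above hetero-KO of that age. The related genes Cxcl1, Cxcl2 and Cxcl5 therefore each had a different pool at the top.

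Upstream sequence is shown for 5 ligands whose levels separated pools, since cytokine-driven transcription of chemokine genes is known to run through NF-kappaB and interferon-response elements near the start site. RefSeq windows (GRCm38.p6) were held for 39 of the 54 genes, 43 windows in all, and 3 motifs were searched on both strands in the 250 bases before each start. The NF-kappaB motif was present in 10 of 43 windows, 23.3%, against 7.25% of all 32851 windows. TTTCNNTTTC, an interferon-stimulated response core, was present in 3, 6.98%, against 2.98%, and TATAAA in 12, 27.9%, against 12.4%. These are matches of letters and not shown binding sites. In the windows that follow, capitals mark matches to any of the 3 motifs. Cxcl10, on the minus strand of chr5:92348890-92349139, holds NF-kappaB matches at −159, −104 and −103 and an interferon-response match at −213; those at −104 and −103 overlap. Cxcl1, on the plus strand of chr5:90890995-90891244, holds overlapping NF-kappaB matches at −71 and −70. Cxcl13, on the plus strand of chr5:95956689-95956938, and Ccl8, on the plus strand of chr11:82114935-82115184, hold TATAAA at −46 and −32. Ccl3, on the minus strand of chr11:83649379-83649628, holds none of the 3.
Cxcl10: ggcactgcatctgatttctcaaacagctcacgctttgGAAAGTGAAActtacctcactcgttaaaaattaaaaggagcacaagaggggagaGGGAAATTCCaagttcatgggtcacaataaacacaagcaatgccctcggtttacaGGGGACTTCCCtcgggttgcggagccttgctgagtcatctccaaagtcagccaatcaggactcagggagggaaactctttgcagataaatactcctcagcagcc
Cxcl1: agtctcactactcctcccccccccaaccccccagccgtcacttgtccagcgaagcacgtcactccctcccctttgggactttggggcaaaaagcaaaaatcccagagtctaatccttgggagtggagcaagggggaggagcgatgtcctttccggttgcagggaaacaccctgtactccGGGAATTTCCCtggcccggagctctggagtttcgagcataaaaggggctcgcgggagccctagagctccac
Ccl3: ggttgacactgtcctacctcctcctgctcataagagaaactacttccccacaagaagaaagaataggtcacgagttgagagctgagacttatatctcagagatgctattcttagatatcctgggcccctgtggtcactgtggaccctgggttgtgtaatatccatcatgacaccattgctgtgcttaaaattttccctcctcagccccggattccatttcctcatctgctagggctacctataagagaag
Cxcl13: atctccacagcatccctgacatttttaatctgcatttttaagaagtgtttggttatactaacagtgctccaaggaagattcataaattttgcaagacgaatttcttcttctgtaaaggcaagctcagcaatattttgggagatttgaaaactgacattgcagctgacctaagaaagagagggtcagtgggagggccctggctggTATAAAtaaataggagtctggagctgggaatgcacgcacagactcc
Ccl8: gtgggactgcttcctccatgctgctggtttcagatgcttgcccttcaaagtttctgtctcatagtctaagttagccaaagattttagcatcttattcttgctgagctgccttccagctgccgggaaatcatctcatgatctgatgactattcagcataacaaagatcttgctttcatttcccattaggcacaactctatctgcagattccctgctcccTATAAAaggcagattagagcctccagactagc

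Of 25 tested inducers of chemokine transcription, 2 rose with age, where 1.46% of all genes did, and 0 passed the genotype test. Those that rose were Nfkbia, the NF-kappaB inhibitor that NF-kappaB itself induces (0.38 on the log2 scale, adjusted p = 0.0444 by limma), and the pattern receptor Tlr2 (1.12, adjusted p = 0.0350). Tnf had an age difference of 0.01, and Il1a and Ifng were not well above background on any array. Il1b, measured on 3 arrays, passed neither test but differed more. Its age difference was 0.87 and its genotype difference 0.95 on the log2 scale (adjusted p = 0.200 and 0.408 by limma).

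The homeostatic chemokine Ccl21a, which guides dendritic cells and T cells through Ccr7, was set apart in the older hetero-KO pool in the opposite direction. It read 1.76 (WT) and 2.01 (hetero-KO) in the young pools, then 1.80 (WT) and 0.714 (hetero-KO) in the old pools. The last was 2.53-fold below WT of that age, while in the authors' deposited table it was higher by 0.33 on the log2 scale. Mouse Ccl21 genes are near-identical copies that this probe may not separate, and the file places the probe on the plus strand of chromosome 4 while the RefSeq window of Ccl21a is on the minus strand. Ccl19, the other Ccr7 ligand, ranged from 0.116 to 0.147 over the arrays, and it too has near-identical copies. Ccr7 read 0.0283 (WT) and 0.0183 (hetero-KO) in the young pools, then 0.0187 (WT) and 0.0219 (hetero-KO) in the old pools, not the order of Ccl21a.

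The levels of Cx3cl1 and Cxcl12, which the brain makes steadily, lay close together over the arrays, as did those of Cxcl14, Ccl27a and Ccl25. Cx3cl1 (fractalkine), a membrane-tethered ligand of neurons that signals to microglial Cx3cr1, read 30.2 (WT) and 32.3 (hetero-KO) in the young pools, then 33.9 (WT) and 39.0 (hetero-KO) in the old pools. Its order was hetero-KO above WT at each age and 18 above 4 months in each genotype, with an age difference of 0.22 ± 0.04 (SE; adjusted p = 0.0724 by limma). Its receptor gene Cx3cr1, tested in the list of other chemokine system genes, rose with age by 0.52 (adjusted p = 0.0464 by limma). Cxcl12, which positions granule cell progenitors and Cajal-Retzius cells through Cxcr4, ranged from 3.62 to 4.93, and Cxcr4 from 0.0397 to 0.0461. Cxcl14 ranged from 10.5 to 12.8, Ccl27a from 10.3 to 11.6 and Ccl25, by its brightest probe, from 1.07 to 1.13. The age differences of the 3 Ccl25 probes measured on every array ran from −0.10 to 0.48 on the log2 scale. For Cxcl14 a second, dimmer probe gave an age difference of −0.14 where the brighter one gave 0.23, and the brighter one, which stood for the gene in the test, had an adjusted p of 0.0720 by limma; the other was not tested. Ccl27a has near-identical copies in the mouse, which its probes may not separate.

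Cxcl11 is an interferon-induced Cxcr3 ligand that is functional in humans. In the mouse reference annotation the gene is a transcribed pseudogene. Its brighter probe read 69.6 (WT) and 67.2 (hetero-KO) in the young pools, then 80.6 (WT) and 84.9 (hetero-KO) in the old pools. Its other probe read 6.77 (WT) and 6.57 (hetero-KO) in the young pools, then 6.87 (WT) and 6.39 (hetero-KO) in the old pools. The first places the older pools above the younger ones and the other does not, and with quantile normalization the age difference of the gene went from 0.28 to −0.0068 on the log2 scale. The probes are shown because 20 bases of the brighter one, in capitals, recur in 15 of 32851 promoter windows and in 6 probes of other genes, and the sequence resembles the B1 family of short interspersed repeats of the mouse. The dimmer one shared 20 bases with no promoter window but with 1 probe of another gene. Neither probe is known to read Cxcl11 alone. None of the 72 probes of the other genes shared 20 bases with more than 1 promoter window. Both lie on the minus strand of chromosome 5 in mm9.
Cxcl11 probe at 92788567: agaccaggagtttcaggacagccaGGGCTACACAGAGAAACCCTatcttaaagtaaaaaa
Cxcl11 probe at 92788640: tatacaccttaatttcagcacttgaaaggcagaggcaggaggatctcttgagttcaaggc

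Ccr6, the receptor of Ccl20 on Th17 and B cells, was high in 1 pool. It read 0.00832 (WT) and 0.0342 (hetero-KO) in the young pools, then 0.00937 (WT) and 0.00675 (hetero-KO) in the old pools, the last of them not well above background. The younger hetero-KO pool was 4.11-fold above WT of its age, or 0.74 on the log2 scale with normexp background correction. Its ligand Ccl20 was not well above background on any array. Among 12 lymphocyte markers tested, 1 rose with age, and Cd3g was not well above background on any array; their summed level was 1.88, 1.91, 2.08 and 2.001 in the same order of groups.

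The remaining 11 genes measured on all 4 arrays had age differences between −0.43 and 0.41 and genotype differences between −0.60 and 0.46 on the log2 scale. They are Ccl1, Ccl9, Ccl17, Ccl19, Ccl24, Ccl28, Cxcl16, Ccr9, Ccr10, Cxcr4 and Cxcr6. Ccl28, a mucosal ligand of Ccr10, was lower in both hetero-KO pools, with 0.115 (WT) and 0.0763 (hetero-KO) in the young pools, then 0.0869 (WT) and 0.0567 (hetero-KO) in the old pools. The file places its probe on 13_random of mm9 and not on a placed chromosome, so its strand cannot be set against that of the RefSeq window. Ccl24, an eotaxin that acts through Ccr3, was higher in both, with 0.0407 (WT) and 0.0507 (hetero-KO) in the young pools, then 0.0274 (WT) and 0.0418 (hetero-KO) in the old pools. Of the 32 genes, 2 had both hetero-KO arrays above both WT arrays and 4 had both below, where 12% and 21.1% of all genes did.

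The lists of related genes are read against the 1.46% of all tested genes that rose with age and the 0.643% that fell. Of 11 other chemokine and receptor genes outside the naming rule, 2 rose with age, Cx3cr1 and Ppbp (a platelet-derived neutrophil attractant; 1.59, adjusted p = 0.0480 by limma), and none fell. Of 31 tested genes of receptor signalling 3 rose with age, among them the guanine exchange factor Vav1 (0.54, adjusted p = 0.0490 by limma) and the kinase Ptk2b (0.42, adjusted p = 0.0497). Of 15 tested genes of chemokine shedding, cleavage and presentation 0 passed, Adam10 and Adam17, which shed Cx3cl1 and Cxcl16, included. No gene of these lists passed the genotype test.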

How the data were processed

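The scanner files as deposited give spot intensity, linear and not scaled between arrays, from Agilent Feature Extraction 11.5.1.1, per the submitters' processing notes. The authors' deposited table gives a linear ratio to the 75th percentile of the array. Its 4-month columns equal the scanner values (r = 1) and its 18-month columns equal no array (highest r 0.985). The medians of its columns were 0.107 (WT) and 0.103 (hetero-KO), then 0.0998 (WT) and 0.0987 (hetero-KO). What the 18-month columns hold is unknown, and the table served as an alternative.

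Here the processed signal was put on a log2 scale and centred on the 75th percentile. A probe needed 50% or more of its spots well above background to count as measured, and the probe with the highest mean level stood for its gene. RefSeq accessions updated the symbols (32994 of 56605 probes matched). limma 3.58.1 in R 4.3.3 tested genes measured on 2 or more arrays, additively for genotype and age, by eBayes with a variance trend; adjustment was by Benjamini-Hochberg at 0.05. Pairs of arrays have no test, and folds of 2 or more were counted. For a dim side, "at least" divides by its own level or the lowest level well above background, whichever is higher. The script was tested on simulated data. Genes named with values passed a test, were 2-fold apart, were among the 8 highest in mean level, or pair with such genes as ligand or receptor. Ccl1, Ccl9, Ccl19, Ccl24, Ccl28, Cxcr4, Il1b and the marker genes named were added after their values were seen. A gene of the family and a signalling gene are counted but not reported here. The members, the lists and this rule were chosen with earlier results of these data known.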

Additional observations from a re-analysis of the deposited data

Results flagged for a closer look

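Ccl8 was listed because its hetero-KO pool moved in opposite directions at the 2 ages. On single arrays, hetero-KO minus WT on the log2 scale came to −1.03 in the young pools and to 1.56 in the old pools. Each is 1 array against 1 array, and the difference between them was not tested.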

How the results depend on the processing

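The 4 age calls among the chemokine genes became 9 with normexp background correction, 3 on genes measured on all 4 arrays (without Cxcl13), 2 with quantile normalization, 1 without genotype in the fit and 12 in the authors' deposited table. They became 0 with no filter on dim genes, when probes were averaged per gene and with no variance trend, where 16, 14 and 16 genes passed an unadjusted p under 0.05. Genotype calls were 0 in each setting. Genes at least 2-fold apart between genotypes at 4 months went from 4 of 34 to 0 with normexp (0.342% of all genes). With no filter they numbered 7 of 54 (5.73%). At 18 months they went from 4 of 33 to 2 with normexp (0.239%) and to 8 of 54 with no filter (5.69%). Those 2-fold apart by age went from 6 to 2 (normexp) and 12 (no filter) in WT, and from 9 to 15 (no filter) and 5 (the authors' deposited table) in hetero-KO. Normexp adds an offset of 50, which shrinks differences of dim spots; for the other settings the cause was not tested.

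Among differences past the test or 2-fold, as reported or in the alternative, directions turned in the authors' deposited table alone, whose 18-month columns match no array. Age differences of this kind there were 1.38 for Ccl21a, 1.36 for Ccl27a, −0.0089 for Ccl3, −0.23 for Ccl4 and −2.06 for Cxcl5. In WT they were −0.0076 for Ccl4, −0.25 for Ccl5 and −2.40 for Cxcl5. In hetero-KO they were −0.38 for Ccl12, −0.51 for Ccl2, 1.44 for Ccl21a, −0.38 for Ccl3, −0.45 for Ccl4, −0.76 for Ccl6, −0.74 for Ccl8, −0.39 for Cxcl1 and −1.71 for Cxcl5. The genotype differences at 18 months were 0.33 for Ccl21a, −1.82 for Ccl8 and −0.44 for Cxcl1. Another 25 of the 73 differences checked changed sign there without passing in either, among them the age differences of Ccl5 (−0.60), Ccl6 (−0.51), Cxcl10 (−0.51), Ccl8 (−0.35), Cxcl1 (−0.35), Ccl2 (−0.27) and Ccl12 (−0.20). Differences that passed in neither setting also changed sign with the mean of probes (7, among them Ccr7 by age, −0.17 to 0.64), normexp (4, among them Ccr3 by age, −0.59 to 0.05) and quantile normalization (3).

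Over all genes, the age calls, 425 higher and 187 lower (69.4% higher), became 1147 and 303 with normexp (79.1%), 53 and 117 with quantile normalization (31.2%), 4 and 10 with the mean of probes (28.6%), 54 and 67 without genotype (44.6%), 4594 and 5289 in the authors' deposited table (46.5%), 651 and 227 on genes measured everywhere (74.1%), and 0 with no filter or no variance trend. Genotype calls, 3 higher, became 9 and 5 lower with normexp, 8 and 2 on genes measured everywhere, 1 and 7 in the deposited table, 1 with the mean of probes or without age, and 0 with no filter or no trend. Genes 2-fold apart by genotype numbered 196 higher and 180 lower at 4 months, against 69 and 28 with normexp and 845 and 1291 unfiltered, and 145 and 169 at 18 months, against 25 and 41 and 1051 and 1073. By age they numbered 218 and 233 in WT, against 62 and 71, 1141 and 1162, and 987 and 1510 in the deposited table, and 303 and 303 in hetero-KO, against 88 and 120, 1532 and 1167, and 868 and 1284. No paired analysis was possible because each group has 1 array, and leaving out an array leaves no residual degree of freedom. Signal near background limits 22 of the 54 genes, which were not measured on every array.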
